A study of Mus musculus with 16 samples.

Results

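The mRNAs described here encode ribosome biogenesis and nucleolar factors, and were chosen by gene symbol: Nop, Nol, Utp and Rrp genes with a number, RNA polymerase I subunits (Polr1), Gnl1 to Gnl3 and their relatives, Imp3, Imp4, Bop1, Ncl, Npm1, Fbl and Dkc1. This rule found 48 of the 12900 RNAs in the expression table. RNA-Seq compared protrusions (Ps) with cell bodies (CB) of NIH/3T3 cells, an established line of mouse embryonic fibroblasts. All cells carried a lentiviral, doxycycline-inducible β-globin coding sequence, followed either by its own 3′UTR (HBB line, the control) or by the 3′UTR of Pkp4 (Pkp4 cUTR line), and both lines were selected with geneticin. Expression was induced with 1 µg/ml doxycycline for 3 days in both lines, so that no library is from uninduced cells. Serum-starved cells were plated for 2 h on filters with 3.0 µm pores, protrusions were drawn through the pores by LPA in the bottom chamber for 1 h, and a 10-min fixation in 0.3% paraformaldehyde preceded the step in which the material below and above the filter was scraped off. There were 4 replicates of each of the 4 groups (HBB CB, HBB Ps, Pkp4 CB and Pkp4 Ps), 16 libraries in all. The study calls them independent replicates, and each line is a selected population, so the lines may also differ in ways other than the construct.

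Ribosomes are built in the nucleolus. RNA polymerase I transcribes the rRNA precursor, small nucleolar ribonucleoproteins (snoRNPs) modify it, and assembly factors of the small and the large subunit fold and cut it while ribosomal proteins bind. The factors themselves are made in the cytoplasm from their mRNAs and imported into the nucleus, so the values below are about where an mRNA was found, not where its protein works.

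Summed over the 12900 RNAs, reads ran from 20204097 to 31260831 in 8 cell body samples and from 18660287 to 24995042 in 8 protrusion samples. These sums leave out mapped reads outside those RNAs and are smaller than the mapped reads that the study reports. RNAs named for enrichment at protrusions (Rab13, Net1, Ddr2, Kank2, Cyb5r3 and Pkp4) were higher in protrusions of the HBB line in 6 of 6 cases and of the Pkp4 cUTR line in 5 of 6, Pkp4 itself missing the test there (log2FC 0.42 ± 0.20 SE, adjusted p = 0.0735). Pkp4 had a log2FC of 4.44 in cell bodies of the Pkp4 cUTR line over those of the HBB line, and as that construct carries the Pkp4 3′UTR, reads of the construct and of the Pkp4 gene cannot be told apart. The summed level of 5 nuclear-retained RNAs (Malat1, Neat1, Kcnq1ot1, Mirg and Airn) ran from 479 to 726 CPM in cell bodies and from 163 to 319 CPM in protrusions. Neat1 (mean log2 CPM 8.38) weighs most in this sum, followed by Malat1 (4.64). These 2 were called lower in protrusions of both lines, Kcnq1ot1 was not called, and Mirg and Airn on their own were higher in protrusions. Fibroblast markers such as Col1a1 (log2 CPM 12.28) and Vim (12.53) were high, and Pecam1 and Cdh5 of endothelium were near the lower limit (-0.84 and -1.36). Cdh1 of epithelium (2.10) and Cd68 of macrophages (2.31) were low but above it, the fibroblast marker Thy1 and the markers Epcam, Ptprc and Myog of other cell types are not among the rows analysed here, and the part of other cells in the results was not tested. How far the amount of nuclear RNA in each fraction bears on the members was not tested. All values are relative to the RNA recovered from a fraction, so more of an mRNA in protrusions and less of all other RNA there cannot be told apart.

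The 48 mRNAs fall into 5 RNA polymerase I subunits, 5 core proteins of snoRNPs, 20 factors of the small subunit processome and 40S assembly, 13 factors of 60S assembly, the abundant nucleolar proteins nucleolin (Ncl) and nucleophosmin (Npm1), and 3 others matched by name (Nol4l, Nol7 and Gnl1). Nol3 and Nol4, which the rule would also have matched, are not among the rows analysed here. Per kilobase of the principal GENCODE transcript, the mean level over all samples was highest for Polr1c (165 CPM per kb), Polr1d (141) and Npm1 (125), and had a median of 10.9 CPM per kb over the members. It was lowest for Nol4l (0.031 CPM per kb), Utp14b (0.163), Nol8 (0.219) and Dkc1 (0.436). Nol4l had 0 to 21 reads per library, so its values carry little weight. Core proteins that share a particle were not at one level. Of the box C/D snoRNP, Fbl stood at 87.4 and Nop56 at 64.2 CPM per kb, but Nop58 at 2.89, and of the H/ACA snoRNP Nop10 stood at 66.1 CPM per kb against 0.436 for Dkc1. Nop58, Nop56, Gnl3, Ncl and Utp14b share some exon bases with another gene on the same strand, mostly snoRNAs, and how reads were assigned there is not given in the sources used here. The low levels of Nop58, Dkc1 and Nol8 per kb are uncertain, since it is also not given how reads of other overlapping annotations were counted. Npm1, known to have many processed pseudogenes, may likewise share reads with near-identical copies.

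Many ribosome biogenesis genes are known targets of MYC, whose preferred site is the E-box CACGTG, which reads the same on both strands. In the RefSeq promoter table (250 bases before to 50 after each start, GRCm38.p6), 39 members had an entry, and CACGTG was present in 7 of them (17.9%), against 12.1% of 9065 RNAs of the expression table with an entry and 7.2% of all 32851 promoters. The members were Imp4, Nol11, Nop2, Rrp7a, Utp14b, Utp18 and Utp20. The 6 sites lying before the RefSeq start with 9 bases to spare on each side are shown (E-box in capitals, strand of the gene).
Imp4, chr1:34439699-34439722, + strand: gtcttagacCACGTGacatcccaa
Nol11, chr11:107189410-107189433, - strand: gagcgttcgCACGTGgtctagact
Nop2, chr6:125131814-125131837, + strand: tccctggatCACGTGtgttccggt
Rrp7a, chr15:83122995-83123018, - strand: cctgtgcacCACGTGtcctggaac
Utp14b, chr1:78658368-78658391, + strand: gggcgcgggCACGTGggtggggtc
Utp18, chr11:93885772-93885795, - strand: agcgccggtCACGTGgcttgcggc
The GENCODE gene of Utp14b begins at base 78658038, ahead of its window, so that site lies before the RefSeq start only. Outside the 6 bases of the element the windows differ. In the HBB line the log2FC of protrusions over cell bodies was 1.10 for Utp14b, 0.40 for Utp18 and 0.20 for Nol11, which were called higher, 0.13 for Rrp7a and 0.07 for Imp4, which were not called, and -0.36 for Nop2, which was called lower. A match is a description of the letters and says nothing of binding. Whether the element bears on these values was not tested.

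To find where these mRNAs were enriched, protrusions were compared with cell bodies within each line by limma-voom, and an mRNA was called at an adjusted p under 0.05 over all 12900 RNAs. In the HBB line 25 of 48 members (52.1%) were higher in protrusions and 7 (14.6%) lower, and 16 did not pass the test. Of all RNAs, 28.3% were called higher and 28.9% lower. The median log2FC of the members was 0.23, with a range from -0.67 to 1.44, against 0.006 over all RNAs. In the Pkp4 cUTR line 25 members (52.1%) were called higher and 6 (12.5%) lower, beside 28.2% and 28.5% of all RNAs, with a median log2FC of 0.22 (all RNAs 0.011). In 23 members every HBB protrusion sample lay above every HBB cell body sample and in 8 every one lay below, where 25.5% and 26.8% of all RNAs did so. The counts in the Pkp4 cUTR line were 22 above and 5 below, against 22.6% and 22.2%. Without replicate 4 of the Pkp4 cell bodies, the members called lower in the Pkp4 cUTR line rose from 6 to 10 (20.8%), where 30.2% of all RNAs were called lower. In the same fit 9 members (18.8%) were called lower in the HBB line, beside 29.9% of all RNAs.

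**Figure D1:**
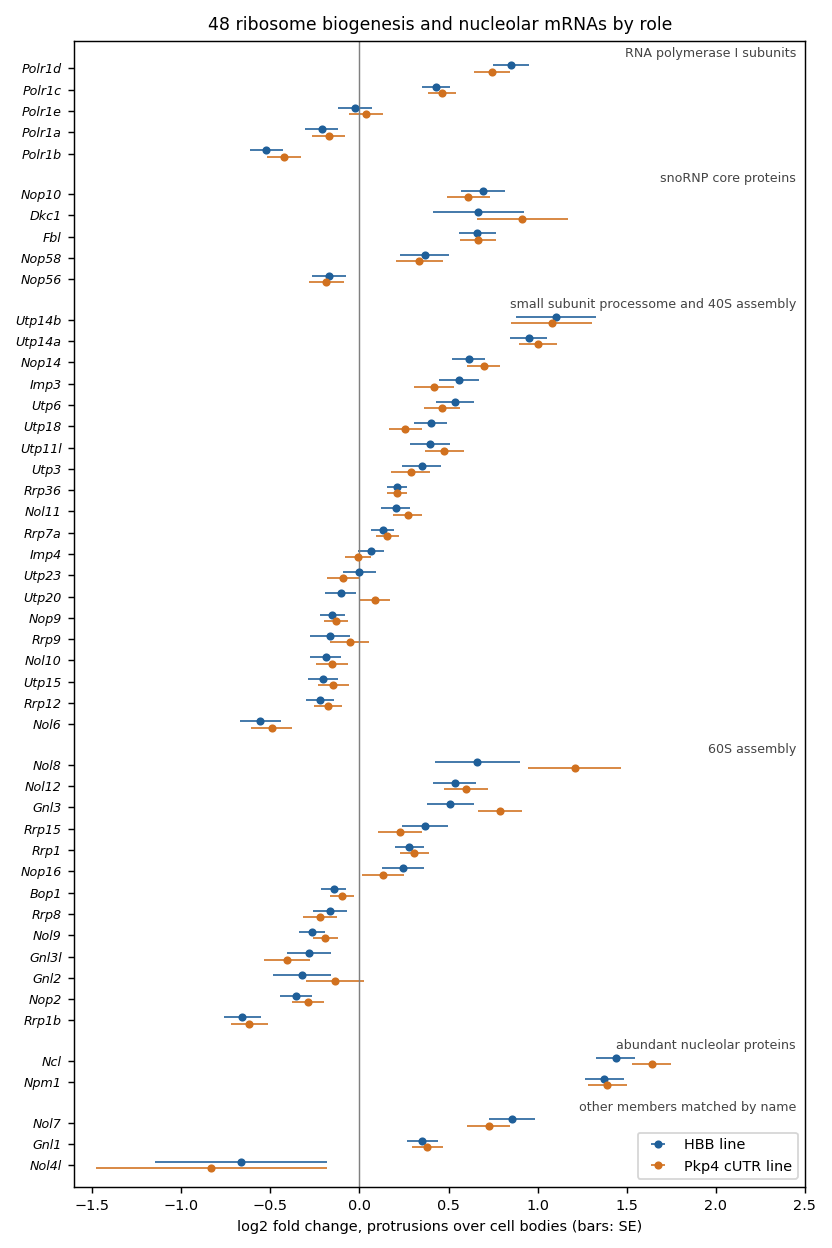
Points give the log2 fold change of protrusions over cell bodies (x axis) for each of the 48 mRNAs (y axis), grouped by role, in the HBB line (blue) and the Pkp4 cUTR line (orange), and bars are standard errors. Ncl and Npm1 lie furthest to the right, and each role apart from theirs holds mRNAs on both sides of 0.

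These counts depend on how libraries were scaled. Total reads here means each sample's sum over the 12900 RNAs. Relative to that sum, the deposited values use scaling factors of 1.072 to 1.114 for cell bodies and 0.828 to 0.974 for protrusions. Scaled instead to total reads, the median log2FC of all RNAs moved to -0.23 in the HBB line and -0.25 in the Pkp4 cUTR line. Members called then numbered 13 higher and 18 lower in the HBB line (27.1% and 37.5%, all RNAs 15.04% and 43.5%), and 14 higher and 18 lower in the Pkp4 cUTR line (29.2% and 37.5%, all RNAs 13.9% and 45.5%). All 13 and 14 were also higher with the deposited scaling. The directions below are therefore relative to the middle of all RNAs, and the counts of each role are given with both scalings.

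Nucleolin and nucleophosmin, abundant nucleolar proteins that bind pre-rRNA and histones, had the largest enrichment. Ncl (chr1:86344719-86359400, - strand, GRCm38) was at 56.2, 46.4, 50.8 and 43.9 CPM in HBB cell bodies and at 136, 136, 140 and 122 CPM in HBB protrusions. In the Pkp4 cUTR line it was at 57.9, 45.7, 51.8 and 57.4 CPM in cell bodies and at 156, 187, 189 and 134 CPM in protrusions. The fractions did not overlap in either line. The log2FC of Ncl was 1.44 ± 0.11 SE in the HBB line (adjusted p = 1.17e-08) and 1.64 ± 0.11 in the Pkp4 cUTR line (adjusted p = 6.3e-09). Npm1 (chr11:33152287-33163206, - strand) was at 133, 108, 117 and 110 CPM in HBB cell bodies and at 295, 328, 313 and 276 CPM in HBB protrusions. Its cell bodies of the Pkp4 cUTR line had 145, 115, 120 and 177 CPM and its protrusions 350, 387, 369 and 337 CPM. The log2FC was 1.38 ± 0.11 (adjusted p = 2.1e-08) and 1.39 ± 0.11 (adjusted p = 3.32e-08), again without overlap. Both mRNAs were called higher in both lines with either scaling, with a median log2FC of 1.41 and 1.51, or of 1.17 and 1.25 when scaled to total reads. Over the 16 samples the member most like Ncl in log2 CPM was Npm1 (Pearson r = 0.987), followed by Nop14 (0.947) and Utp14b (0.946), and those most like Npm1 after Ncl were Nop14 (0.957) and Polr1d (0.953). These r span both fractions. Over deviations from the 4 group means r was 0.734 for Ncl and Npm1, 0.196 for Ncl and Nop14, 0.761 for Ncl and Utp14b, 0.401 for Npm1 and Nop14 and 0.517 for Npm1 and Polr1d.

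**Figure D2:**
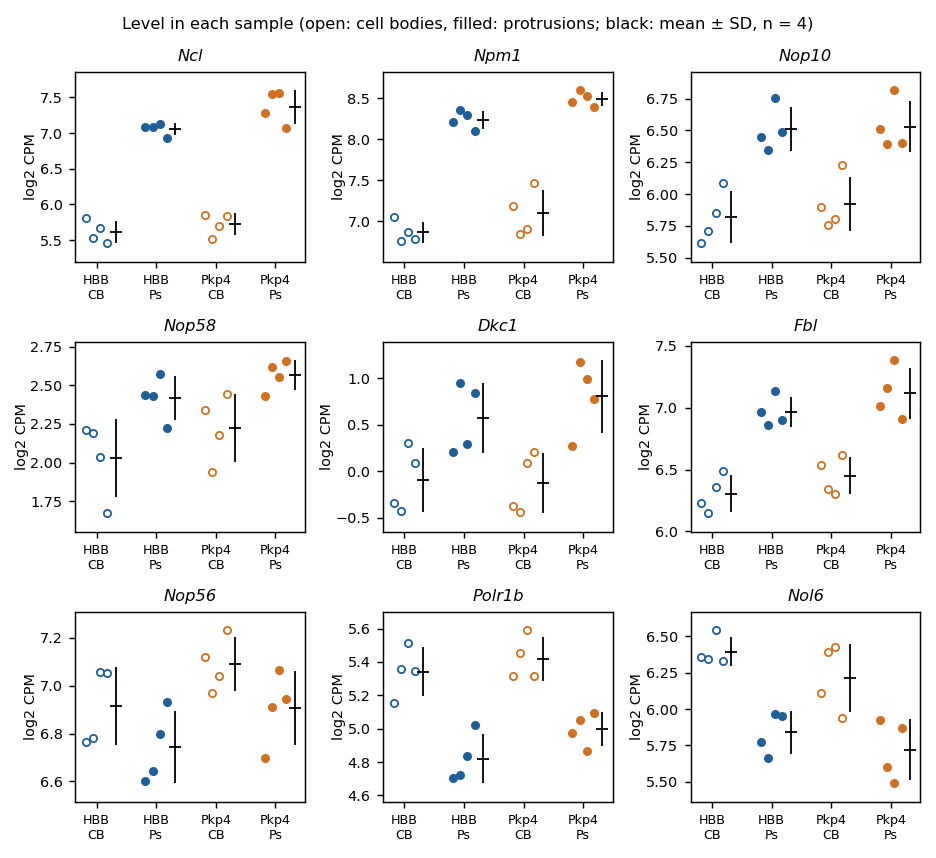
Each panel shows log2 CPM (y axis) of 1 mRNA in the 4 samples of each group, with cell bodies as open and protrusions as filled points and the mean ± SD in black. Protrusions lie above cell bodies for Ncl, Npm1, Nop10 and Fbl and below them for Polr1b and Nol6, while the groups overlap for Nop56.

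Taking the threshold of more than 2-fold with an unadjusted p under 0.05, 3 members passed in the HBB line, all of them higher (Ncl, Npm1 and Utp14b), beside 8.54% of all RNAs in either direction. In the Pkp4 cUTR line 4 passed, the same 3 and Nol8, beside 7.99% of all RNAs. The shares of members past this threshold (6.25% and 8.33%) were thus near those of all RNAs, most of which did not pass it either. Of the 25 members called higher in the HBB line, 22 rose by less than 2-fold, and the like count over all RNAs was not made. As a yardstick, 75 of 76 ribosomal protein mRNAs were called higher in the HBB line, with a median log2FC of 1.11.

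The snoRNP core proteins carry out or scaffold ribose methylation and pseudouridylation of rRNA. In both lines 4 of 5 (80%) were called higher in protrusions, beside 28.3% and 28.2% of all RNAs. Their median log2FC was 0.66 and 0.61, or 0.42 and 0.35 when scaled to total reads. With that scaling 2 and 3 were called higher, beside 15.04% and 13.9% of all RNAs. In each line 1 (Nop56) was then called lower, beside 43.5% and 45.5% of all RNAs. Fbl, the methyltransferase of box C/D snoRNPs (chr7:28169710-28179269, + strand), was at 74.99, 70.8, 82.1 and 89.6 CPM in HBB cell bodies and at 125, 116, 141 and 119 CPM in HBB protrusions, without overlap. Its log2FC was 0.66 ± 0.10 in the HBB line (adjusted p = 3.07e-05) and 0.67 ± 0.10 in the Pkp4 cUTR line (adjusted p = 3.22e-05). Its box C/D partner Nop56 (chr2:130274430-130279313, + strand) did not share this: it was at 109, 110, 133 and 133 CPM in HBB cell bodies and at 97.0, 100.1, 111 and 122 CPM in HBB protrusions. The groups overlapped, and its log2FC was -0.17 ± 0.10 in the HBB line (adjusted p = 0.137) and -0.19 ± 0.10 in the Pkp4 cUTR line (adjusted p = 0.109). Nop58, the other scaffold of that particle, had a log2FC of 0.37 ± 0.14 (adjusted p = 0.0277) and 0.34 ± 0.13 (adjusted p = 0.037), and its call was kept in 11 of 16 fits that left out 1 library in each line. Nop10 of the H/ACA particle (chr2:112261926-112263269, + strand) ranged from 49.1 to 67.9 CPM in HBB cell bodies and from 81.5 to 108 CPM in HBB protrusions, with log2FC 0.69 in the HBB line and 0.61 in the Pkp4 cUTR line. Dkc1, the pseudouridine synthase, rested on 21 to 41 reads per HBB library. Its log2FC was 0.67 ± 0.26 in the HBB line (adjusted p = 0.0324, called in 12 of 16 fits with 1 library left out) and 0.91 ± 0.25 in the Pkp4 cUTR line (adjusted p = 0.00519).

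The RNA polymerase I subunits did not move together: 2 of 5 (40%) were higher and 1 (20%) lower in each line, with medians of -0.02 and 0.04. Of all RNAs, 28.3% were higher and 28.9% lower in the HBB line, and 28.2% and 28.5% in the Pkp4 cUTR line. Scaled to total reads, 2 subunits were higher in each line and 3 and 2 lower, with medians of -0.26 and -0.23. Of all RNAs, 15.04% were then higher and 43.5% lower in the HBB line, and 13.9% and 45.5% in the Pkp4 cUTR line. Polr1c and Polr1d, smaller subunits that are also part of RNA polymerase III, were higher in protrusions of both lines, also when scaled to total reads. Polr1d (chr5:147077050-147111597, + strand) was at 117, 118, 118 and 143 CPM in HBB cell bodies and at 214, 213, 259 and 208 CPM in HBB protrusions. Its log2FC was 0.85 ± 0.10 (adjusted p = 1.35e-06), and 0.75 ± 0.10 in the Pkp4 cUTR line (adjusted p = 6.94e-06). Polr1c had a log2FC of 0.43 ± 0.08 in the HBB line (adjusted p = 0.000155) and 0.46 ± 0.08 in the Pkp4 cUTR line (adjusted p = 8.43e-05). Polr1b, a large subunit and part of the catalytic core (chr2:129100995-129126594, + strand), went the other way. It was at 35.5, 41.0, 45.7 and 40.7 CPM in HBB cell bodies and at 26.0, 26.4, 28.6 and 32.5 CPM in HBB protrusions, which do not overlap, with a log2FC of -0.52 ± 0.09 (adjusted p = 0.00012). The log2FC of Polr1b in the Pkp4 cUTR line was -0.42 ± 0.09 (adjusted p = 0.000842). The largest subunit Polr1a had values of -0.21 ± 0.09 (adjusted p = 0.0563) and -0.17 ± 0.09 (adjusted p = 0.119), and Polr1e -0.02 and 0.04, neither of which passed the test in either line with the deposited scaling. Scaled to total reads, Polr1a was called lower in both lines (-0.45, adjusted p = 0.00136, and -0.44, adjusted p = 0.0018) and Polr1e in the HBB line.

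Of the 20 factors of the small subunit processome and 40S assembly, 10 (50%) were higher and 3 (15%) lower in HBB protrusions. In all RNAs these shares were 28.3% and 28.9%. In Pkp4 cUTR protrusions 11 (55%) were higher and 1 (5%) lower, beside 28.2% and 28.5% of all RNAs. The medians were 0.17 and 0.18. Scaled to total reads, 5 were higher and 7 lower in the HBB line, beside 15.04% and 43.5% of all RNAs. In the Pkp4 cUTR line 3 were then higher and 8 lower, beside 13.9% and 45.5% of all RNAs. Nop14, Utp14a and Utp14b were higher in both lines under either scaling. Utp14a, a processome component on chromosome X, had 10.6, 9.9, 10.6 and 10.1 CPM in HBB cell bodies and 17.2, 19.8, 21.8 and 21.3 CPM in HBB protrusions. Its log2FC was 0.95 ± 0.10 (adjusted p = 5.94e-07), and 1.00 ± 0.11 in the Pkp4 cUTR line (adjusted p = 6.21e-07). Utp14b, a retrogene copy of it that overlaps the Acsl3 locus, gave a like log2FC of 1.10 ± 0.23 and 1.08 ± 0.23, but from 17 to 38 reads per HBB library. Nop14 rose with a log2FC of 0.61 ± 0.09 in the HBB line (adjusted p = 2.36e-05) and 0.70 ± 0.09 in the Pkp4 cUTR line (adjusted p = 6.36e-06). The remaining factors called higher in the HBB line were Imp3 (0.56), Utp6 (0.54), Utp18 (0.40), Utp11l (0.40), Utp3 (0.35), Rrp36 (0.21) and Nol11 (0.20). The call of Nol11 there was kept in 10 of 16 fits with 1 library left out. In the Pkp4 cUTR line the calls of Utp3 and Utp18 were kept in 12 and 13 of 16. Nol6, another processome component, was the 1 member of this role lower in both lines. It was at 82.1, 81.2, 93.3 and 80.7 CPM in HBB cell bodies and at 54.7, 50.8, 62.4 and 62.1 CPM in HBB protrusions, and its log2FC was -0.56 ± 0.11 (adjusted p = 0.000424) and -0.49 ± 0.11 in the Pkp4 cUTR line (adjusted p = 0.00137). Rrp12 (-0.22) and Utp15 (-0.20) were called lower in the HBB line alone, in 12 and 4 of 16 fits with 1 library left out, and Rrp7a (0.16) was called higher in the Pkp4 cUTR line alone, in 6 of 16. In these cases the difference between the lines had unadjusted p-values from 0.637 to 0.778. Utp20, Utp23, Imp4, Nop9, Nol10 and Rrp9 did not pass in either line.

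The 13 factors of 60S assembly had members on both sides, with medians of -0.15 and -0.10. In the HBB line 5 (38.5%) were higher and 3 (23.1%) lower, beside 28.3% and 28.9% of all RNAs. In the Pkp4 cUTR line 4 (30.8%) were higher and 4 (30.8%) lower, beside 28.2% and 28.5% of all RNAs. Scaled to total reads, 1 and 3 were higher, beside 15.04% and 13.9% of all RNAs, with Nol12 the member higher in both lines. In each line 7 were then lower, beside 43.5% and 45.5% of all RNAs. Gnl3 (nucleostemin, a nucleolar GTPase, chr14:31012433-31019152, - strand) was at 7.9, 7.1, 7.9 and 7.2 CPM in HBB cell bodies and at 9.6, 11.5, 10.03 and 12.01 CPM in HBB protrusions, with a log2FC of 0.51 ± 0.13 (adjusted p = 0.00263). In the Pkp4 cUTR line it had 8.3, 7.2, 8.4 and 11.3 CPM in cell bodies and 14.0, 16.9, 16.6 and 12.8 CPM in protrusions, with a log2FC of 0.79 ± 0.12 (adjusted p = 3.64e-05). Its paralogue Gnl3l had negative values of -0.28 ± 0.13 (adjusted p = 0.0607) and -0.41 ± 0.13 (adjusted p = 0.0109), so it was called lower in the Pkp4 cUTR line. A second pair of paralogues also parted: Rrp1 was higher in protrusions (0.28 and 0.31) and Rrp1b lower. Rrp1b was at 34.7, 35.9, 39.8 and 32.8 CPM in HBB cell bodies and at 19.4, 23.6, 23.3 and 25.1 CPM in HBB protrusions, with a log2FC of -0.66 ± 0.10 (adjusted p = 3.26e-05), and -0.62 ± 0.10 in the Pkp4 cUTR line (adjusted p = 7.32e-05). Nop2, a methyltransferase of the large subunit rRNA, was lower by -0.36 ± 0.09 (adjusted p = 0.00235) and -0.29 ± 0.09 (adjusted p = 0.0107). Nol9, a polynucleotide kinase of pre-rRNA processing, was lower by -0.27 ± 0.07 (adjusted p = 0.00426) and -0.19 ± 0.07 (adjusted p = 0.031). Its call in the Pkp4 cUTR line was kept in 12 of 16 fits with 1 library left out. Nol12 (0.53 and 0.60) and Nol8 (0.66 and 1.21) were higher in both lines and Rrp15 (0.37) in the HBB line, the values of Nol8 resting on 11 to 31 reads per library. The calls of Nol8 and Rrp15 in the HBB line were each kept in 13 of 16 fits with 1 library left out. Bop1, of the complex with Pes1 and Wdr12, missed the test in both lines (-0.15 ± 0.07, adjusted p = 0.0788, and -0.10 ± 0.07, adjusted p = 0.228), as did Nop16, Gnl2 and Rrp8.

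Of the 3 members outside these roles, Nol7 was at 12.2, 12.1, 10.4 and 11.6 CPM in HBB cell bodies and at 20.5, 22.9, 22.1 and 18.3 CPM in HBB protrusions. Its log2FC was 0.86 ± 0.13 (adjusted p = 1.78e-05) and 0.72 ± 0.12 in the Pkp4 cUTR line (adjusted p = 7.59e-05). Scaled to total reads Nol7 was still called higher in both lines and Gnl1 in neither. Gnl1 had 0.35 and 0.38, both past the test with the deposited scaling, and Nol4l -0.67 and -0.83, neither past it.

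To ask whether the Pkp4 cUTR altered the enrichment of these mRNAs, log2(Diff FC), the log2FC of the Pkp4 cUTR line minus that of the HBB line, was tested. No member (0 of 48) had an unadjusted p under 0.05 by limma, where 2.33% of all RNAs did, and none had an adjusted p under 0.05. This difference was not fitted with the replicate number as a block shared by the lines, so the test and its intervals leave that pairing out. The values ran from -0.17 to 0.55 with a median of 0.032. By limma, the 5 members with the smallest unadjusted p-values, from 0.133 to 0.297, were Utp20 (0.19 ± 0.12 SE), Nol8 (0.55 ± 0.35), Gnl3 (0.28 ± 0.18), Ncl (0.20 ± 0.15) and Utp18 (-0.14 ± 0.13). The half-width of the 95% interval had a median of 0.30. Estimates smaller than this mostly could not reach an unadjusted p under 0.05 by limma. True differences of about that size in a single mRNA could thus have been missed. For Ncl the interval ran from -0.12 to 0.52 and for Gnl3 from -0.10 to 0.65. Side by side, 24 members were called higher in both lines and 5 lower in both (Nol6, Nol9, Nop2, Polr1b and Rrp1b), 14 were called in neither, and none was called in opposite directions. In 44 of 48 members the 2 values lay within 0.2 of each other. Pearson's r of the members' log2FC between the lines was 0.971 across genes, which are not independent replicates, and the lines have separate protrusion and cell body samples, paired only by replicate number.

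**Figure D3:**
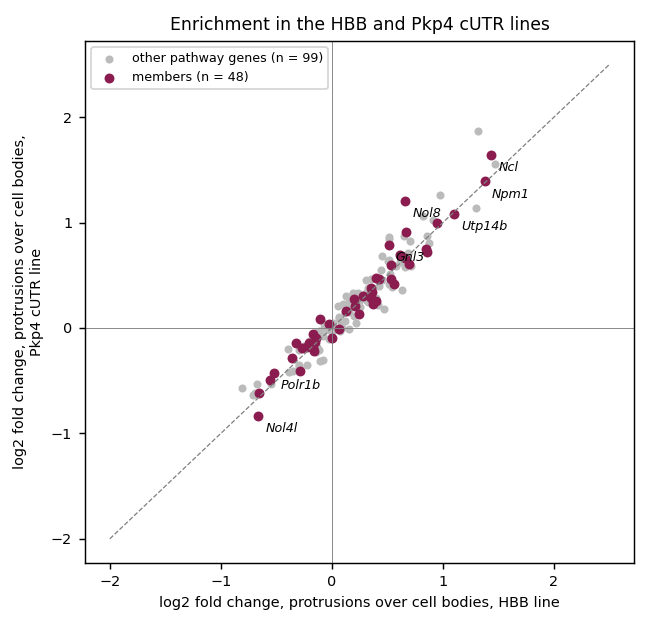
The log2 fold change of protrusions over cell bodies in the HBB line (x axis) is plotted against that in the Pkp4 cUTR line (y axis) for the 48 members (dark points) and 99 other pathway genes (grey), with the line of equal values dashed. Members follow the dashed line from Rrp1b and Nol4l at the lower left to Npm1 and Ncl at the upper right, and Nol8, a gene with few reads, lies furthest above it among the members.

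The lines were then compared within each fraction. In cell bodies 1 member, Bop1 (chr15:76452989-76477277, - strand), differed at an adjusted p under 0.05, beside 8.97% of all RNAs. Bop1 was at 182, 175, 204 and 195 CPM in HBB cell bodies and at 147, 150, 154 and 141 CPM in Pkp4 cUTR cell bodies, without overlap, with a log2FC of -0.35 ± 0.07 (adjusted p = 0.00279). The next smallest p-values in cell bodies belonged to Polr1c (0.24 ± 0.08, adjusted p = 0.0598), Utp18 (0.28 ± 0.09, adjusted p = 0.0604), Nol7 (0.38 ± 0.13, adjusted p = 0.072) and Utp6 (0.29 ± 0.10, adjusted p = 0.0863). With the replicate number as a block, 3 members (6.25%) passed in cell bodies, Bop1, Polr1c and Utp18, beside 11.2% of all RNAs. Without replicate 3 of the Pkp4 cell bodies 4 members (8.33%) passed beside 9.7% of all RNAs, and without any of 4 other libraries 2 (4.17%) did, beside 6.02% to 10.0% of all RNAs (HBB CB replicate 1, HBB Ps replicate 3, Pkp4 CB replicate 2 and Pkp4 Ps replicate 3), Bop1 being among them each time.

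In protrusions 3 members differed between the lines, beside 7.16% of all RNAs. Bop1 was again lower, at 176, 158, 174 and 175 CPM in HBB protrusions and at 141, 131, 151 and 129 CPM in Pkp4 cUTR protrusions, with a log2FC of -0.30 ± 0.07 (adjusted p = 0.0106). The groups did not overlap. Gnl3 was higher in Pkp4 cUTR protrusions by 0.47 ± 0.12 (adjusted p = 0.0255; 0.44 and adjusted p = 0.0513, not called, when scaled to total reads), and Polr1c by 0.28 ± 0.08 (adjusted p = 0.0375), from 233, 207, 258 and 221 CPM in HBB protrusions to 275, 266, 323 and 251 CPM. The samples of Gnl3 did not overlap and those of Polr1c did. Utp20 (0.26 ± 0.09, adjusted p = 0.0882) and Ncl (0.31 ± 0.11, adjusted p = 0.0905) did not pass. Without HBB Ps replicate 1, Pkp4 Ps replicate 2 or Pkp4 Ps replicate 3, the count fell from 3 to 1, with Bop1 as the remaining member, beside 4.22% to 4.87% of all RNAs. Polr1c also lost its call without HBB CB replicate 1, HBB Ps replicate 2 or 4, Pkp4 CB replicate 1 or Pkp4 Ps replicate 1. Gnl3 also lost its call without HBB Ps replicate 3. In each of these fits 2 members (4.17%) passed, beside 4.6% to 7.54% of all RNAs.

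**Figure D4:**
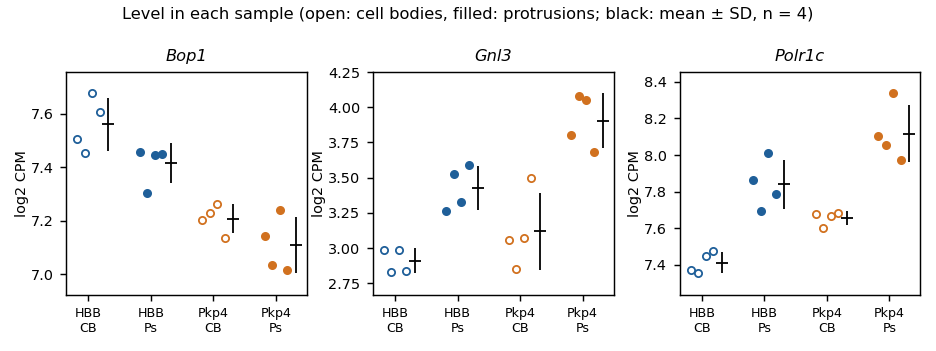
Log2 CPM (y axis) of Bop1, Gnl3 and Polr1c is shown for each of the 4 samples per group, with cell bodies as open and protrusions as filled points and the mean ± SD in black. All Pkp4 cUTR samples of Bop1 lie below all HBB samples of the same fraction, and Gnl3 differs between the lines past the test, with the deposited scaling, in protrusions but not in cell bodies.

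Other genes of the pathway, listed by role and not matched by the naming rule, had values of the same order. Of 99 such mRNAs in the table, 37 (37.4%) were higher and 14 (14.1%) lower in HBB protrusions, beside 28.3% and 28.9% of all RNAs. Their median log2FC was 0.19. In Pkp4 cUTR protrusions 43 (43.4%) were higher and 16 (16.2%) lower, beside 28.2% and 28.5% of all RNAs, with a median of 0.21. Scaled to total reads they numbered 23 higher and 31 lower in the HBB line, beside 15.04% and 43.5% of all RNAs. In the Pkp4 cUTR line they then numbered 18 higher and 37 lower, beside 13.9% and 45.5% of all RNAs. By role in the HBB line, the shares below stand beside the same 28.3% and 28.9% of all RNAs. Of 34 other small subunit factors 15 (44.1%) were higher and 5 (14.7%) lower. Of 34 other large subunit factors 12 (35.3%) were higher and 6 (17.6%) lower. Of 12 exosome subunits and cofactors 4 (33.3%) were higher and 1 (8.33%) lower, and of 8 other snoRNP factors 3 (37.5%) were higher and none lower. Of 11 rRNA transcription factors and other polymerase subunits 3 (27.3%) were higher and 2 (18.2%) lower. The 3 with the smallest p among the higher were Nsa2 (1.301 ± 0.09, adjusted p = 4.42e-09), Rsl1d1 (0.91 ± 0.09, adjusted p = 3.16e-07) and Mak16 (0.88 ± 0.10, adjusted p = 1.17e-06), all of large subunit assembly. Among the lower they were Taf1c, a subunit of the promoter selectivity factor of RNA polymerase I (-0.81 ± 0.09, adjusted p = 5.44e-07), Nat10, the acetyltransferase of small subunit rRNA (-0.69 ± 0.08, adjusted p = 1.83e-06), and Pdcd11 (-0.68 ± 0.08, adjusted p = 1.83e-06). In the Pkp4 cUTR line these 6 had log2FC values of 1.14, 1.02, 0.81, -0.57, -0.62 and -0.53 in the same order. Of these 99, Dcaf13 (-0.29) and Exosc1 (-0.20) had unadjusted p-values for log2(Diff FC) under 0.05 by limma, at 0.0455 and 0.0484. That is 2.02%, beside 2.33% of all RNAs, and neither had an adjusted p under 0.05.

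The coding sequence differed in length between members called higher and lower. In the HBB line the median coding length was 1407 bases for the 25 called higher, 2382 for the 7 called lower and 1736 for the 16 not called. Across the 48 members, Spearman's rho between coding length and log2FC was -0.40 in the HBB line and -0.32 in the Pkp4 cUTR line, and across 11360 RNAs with a coding transcript it was -0.35 and -0.29. The lengths overlapped between the directions, and Ncl (2121 bases) and Utp14a (2301 bases) were higher with coding sequences about as long as those of Rrp1b (2172 bases) and Nop2 (2382 bases). These rho values describe genes of the same libraries and are given without a test.

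**Figure D5:**
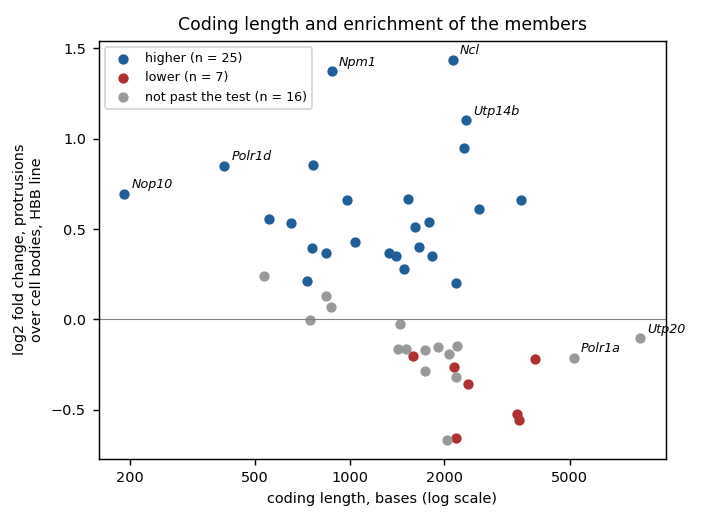
Coding length in bases (x axis, log scale) is plotted against log2 fold change of protrusions over cell bodies in the HBB line (y axis) for the 48 members, coloured by call. Of the 7 members called lower, Utp15 has the shortest coding sequence at 1584 bases, and Ncl, Npm1 and Utp14b lie above the rest at their lengths.

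Ncl, Gnl3, Nop56, Nop58 and Dkc1 also carry snoRNA genes in the same orientation within their gene bodies, as many genes of ribosome biogenesis are known to do (10.4% of members, against 1.86% of the 11365 protein-coding RNAs in the table). Of these 5 hosts 4 were called higher in HBB protrusions, Nop56 being the exception. Over all 211 protein-coding hosts of the table, 48.3% were called higher, beside 28.1% of all protein-coding RNAs, with a median log2FC of 0.25 against -0.03. How many of these hosts are ribosomal protein genes, of whose mRNAs 75 of 76 were called higher, was not counted. Whether hosting a snoRNA bears on enrichment was not tested.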

How the data were processed

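Protrusion and cell body RNA of both lines was sequenced as described by the submitters (stranded Illumina libraries, paired-end reads). According to the submitters' processing notes, reads were processed with bcl2fastq 1.8.4, STAR 2.4.2a (mm10) and limma 3.26.1, and the study's methods name Rsubread for counting reads per gene and a filter on low RNAs. The deposited values are log2 CPM from limma-voom, in which the authors scaled each library and added 0.5 reads. Whole reads were recovered from these values (100% within 0.01 of a whole number), with 18660287 to 31260831 reads per library over the 12900 RNAs. A test on log2 values in place of counts was thus not needed, and limma-voom (limma 3.58.1, R 4.3.3) was run on the recovered reads with the authors' scaled library sizes, with 1 mean per group, 4 samples per group, and Benjamini-Hochberg adjustment over 12900 RNAs. SE are limma's moderated standard errors, and log2FC that of protrusions over cell bodies unless stated. The procedure was also run on simulated reads with the same dispersion for all RNAs, and the outcome is not given here.

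Lengths, positions and overlaps are from GENCODE vM21 (GRCm38, the assembly of mm10), which matched all 48 members, 1 of them (Utp11l) by an older symbol. Levels per kilobase use the principal protein-coding transcript. Alternatives were no precision weights, scaling to total reads, normalization to quantiles, 1 CPM added before the logarithm, keeping RNAs whose mean log2 CPM exceeded 1, a block for the replicate number and leaving out each library. The members, role lists and other pathway genes were chosen with earlier results of these data known. Statistics in full were given for Ncl, Npm1, Fbl, Dkc1, Nop56, Nop58, Polr1a, Polr1b, Bop1 and Gnl3, for the 5 members with the smallest p in each direction of each enrichment, and for the 5 with the smallest p in each other comparison. Of the other pathway genes the 3 with the smallest p in each direction were named. The same replicate number pairs the lines within a fraction, as the deviations of same-numbered samples from their group means correlated in every pair (0.331 to 0.628 in cell bodies, 0.196 to 0.392 in protrusions). Beside the cell body comparison, where it moved the count, the blocked value is given. The APC knockdown libraries of the study were not used here.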

Additional observations from a re-analysis of the deposited data

Results flagged for a closer look

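Among the 24 members described with full statistics, each of 96 groups of 4 samples was searched for a sample far from the other 3, by Dixon's criterion on the gap to the nearest over the group's range. Chance flags about 1 in 20 groups, and 5 of 96 were found. Bop1 in HBB protrusions had 7.3 log2 CPM in replicate 2, below the others at 7.45 to 7.46. Nol6 in HBB cell bodies had 6.54 in replicate 3, above the others at 6.33 to 6.36. Polr1d stood out in 2 groups, with 7.16 in replicate 4 of HBB cell bodies (others 6.87 to 6.88) and 8.01 in replicate 3 of HBB protrusions (others 7.7 to 7.74). Utp6 had 4.38 in replicate 1 of Pkp4 cUTR protrusions, with the others at 4.54.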

How the results depend on the processing

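Scaling to total reads changed most counts: members called numbered 13 higher and 18 lower in the HBB line (25 and 7 with the deposited scaling) and 14 and 18 in the Pkp4 cUTR line (25 and 6), 2 members passed 2-fold in the Pkp4 cUTR line in place of 4, and 2 differed between cell bodies in place of 1. Gnl3 no longer differed between protrusions (adjusted p = 0.0513). With the shift of all RNAs, the log2FC changed sign for 4 members in the HBB line and 7 in the Pkp4 cUTR line, of which 2 and 3 had been called and none was called afterwards; among the members described in full these were Utp18 (-0.0062) and Utp20 (-0.178), both in the Pkp4 cUTR line. The other settings that kept all libraries left the enrichment counts within 1.5 times, but 2 members passed 2-fold in the Pkp4 cUTR line with log2(CPM + 1) and with a mean log2 CPM above 1, which removes 4 members from the table, and 2 differed between cell bodies after quantile normalization. Leaving out 1 library gave 21 to 25 higher and 5 to 9 lower in the HBB line, 21 to 25 higher and 5 to 10 lower in the Pkp4 cUTR line (10 without Pkp4 CB replicate 4), 2 to 4 and 3 to 6 past 2-fold, 1 to 4 differing between cell bodies and 1 to 4 between protrusions. It gave 0 to 1 with an unadjusted p under 0.05 for log2(Diff FC), the 1 appearing without HBB CB replicate 2, HBB CB replicate 4, Pkp4 CB replicate 4 or Pkp4 Ps replicate 4. Over the 16 fits 51.4% to 59.2% of all RNAs were called in the HBB line, with 26.1% to 29.9% of all RNAs lower. In the Pkp4 cUTR line these shares were 50% to 60.1% and 25.4% to 30.2%. Between the lines 5.36% to 10% of all RNAs differed in cell bodies and 4.22% to 8.81% in protrusions. Called in all 16 such fits were 20 of 25 higher and 5 of 7 lower in the HBB line, and 21 of 25 and 5 of 6 in the Pkp4 cUTR line. With cell body replicates 4 of both lines left out, chosen after seeing the data, 10 members (20.8%) were lower in each line. Of all RNAs, 30.9% were then lower in the HBB line and 30.8% in the Pkp4 cUTR line. In that fit 2 members had an unadjusted p under 0.05 for log2(Diff FC).

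With the replicate number as a block, 3 members differed between cell bodies of the lines in place of 1, and 3 between protrusions as before. Between protrusions and cell bodies of the HBB line, same-numbered samples correlated at 0.0455 to 0.389, but protrusion replicate 2 and cell body replicate 1 reached 0.436. Pairing by number is thus not clear in that line. In the Pkp4 cUTR line the numbers did not pair the fractions (correlations of -0.362 to 0.00248). The block gave 25 higher and 7 lower in the HBB line and 23 and 5 in the Pkp4 cUTR line. Causes of these changes were not tested, other than the -0.23 and -0.25 shift of all RNAs that scaling to total reads makes. Nol4l, Nol8, Utp14b and Dkc1 rest on few reads, which limits their precision.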
